A study of Mus musculus with 29 samples.

Results

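The mouse mitochondrial genome encodes 37 genes: 13 mRNAs, 2 rRNAs and 22 tRNAs. Of the 24448 gene rows of the count table, the 37 rows named by an Ensembl identifier were taken, and each of the 37 matched a mitochondrial gene symbol. Their counts were followed in 29 Smart-seq2 libraries of 3 groups: 9 control embryos, 8 hydroxyurea embryos and 12 single cumulus cells. Each embryo library came from 1 whole embryo at the 2-cell stage, 28 h after activation, made by injecting a cumulus cell nucleus into an enucleated BDF1 oocyte. Activation lasted 6 h for all 17 embryos, with 10 mM strontium, CB and EGTA. The hydroxyurea embryos were then kept for 24 h in medium with 10 uM hydroxyurea, an inhibitor of the enzyme that makes deoxynucleotides, and the control embryos in medium without it. The cumulus cells, somatic cells that surround the oocyte, carried the same strain label and stand for the nuclear donors. They had no treatment label. Because donor and oocyte share a strain label, mitochondrial RNA from either source cannot be told apart in these counts.

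Mitochondrial DNA is read from both strands as long transcripts. Transfer RNAs punctuate them, and their excision releases the rRNAs and most of the mRNAs. Most mRNAs then receive poly(A) tails. The heavy-strand transcript holds 12 of the mRNAs, both rRNAs and 14 of the tRNAs, and the light-strand transcript holds mt-Nd6 and the other 8 tRNAs. The proteins are subunits of the respiratory chain and of ATP synthase, while the enzymes that transcribe, cut and translate the RNA are made from nuclear genes. An oocyte carries a large store of mitochondria that are divided among the cells of the early embryo.

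The libraries held different amounts of usable data. Embryos had 1801261 to 3757492 gene counts and cumulus cells 317195 to 4051494, spike-in (ERCC) rows excluded. Rn45s, the nuclear ribosomal RNA precursor, took 15.2% to 32.5% of embryo gene counts and 49.3% to 86.6% of those of cells. Levels are therefore given as a percentage of gene counts without ERCC and Rn45s, or as CPM, counts scaled to the same total of those gene counts in every library. Only the levels per length deposited by the authors keep Rn45s in the library sum. ERCC rows took 3.99% to 8.45% of all counts in embryos and 24.8% to 73.5% in cells. The labelled types were met by their markers in most libraries: 10 oocyte and early embryo genes summed to 2876 to 5289 CPM in embryos and 0 to 26.5 CPM in cells. Summed levels of 15 cumulus and granulosa genes were 67.8 to 253 CPM in embryos. Cumulus cell 10 had counts for 1 of these 15 genes, at 204 CPM, and cumulus cell 2 reached 520 CPM with counts for 5, while the other 10 cells lay between 1500 and 7541 CPM. Cumulus cell 2 also had counts for 6 of 7 immune markers, summing to 1273 CPM against at most 112 CPM in the cells other than 2 and 10. These cells are therefore given separately where they touch a result.

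A read that lies within a near-identical nuclear copy of mitochondrial DNA has more than 1 possible origin, so these copies are shown before the levels. Matching the transcripts of GENCODE M21 (build GRCm38, also called mm10) found 11 annotated nuclear copies of at least 100 bases at 95% identity or more, and none of the 11 has a row in the count table. On chromosome 1, 7 copies lie in a single stretch on the minus strand, chr1:24611535-24616197, in the same order as in mitochondrial DNA. That stretch runs from the 3′ part of mt-Co1 to the 5′ part of mt-Nd4. The copies Gm28661 of mt-Co2, Gm10925 of mt-Atp6, Gm28437 of mt-Co3 and Gm10222 of mt-Nd4l match over at least 99.0% of the gene with 0 mismatches, and Gm28438 of mt-Nd3 with 1. mt-Nd4 is matched over 63.6% of its length by Gm28439 with 0 mismatches, and mt-Co1 over 31.3% by Gm29216 with 1 mismatch. The small mt-Atp8 lies inside the same span between mt-Co2 and mt-Atp6. Copies elsewhere differ more, such as Gm13341 on chromosome 2, a copy of mt-Co2 with 16 mismatches. The first 60 bases of mt-Co2 (chrM:7013-7696, plus strand), of Gm28661 (chr1:24614885-24615565, minus strand) and of Gm13341 (chr2:22587291-22587962, minus strand) are printed from GENCODE M21 5′ to 3′ with bases that differ from mt-Co2 in capitals, because they show how little separates the copies.
mt-Co2: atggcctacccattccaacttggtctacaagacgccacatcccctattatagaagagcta
Gm28661: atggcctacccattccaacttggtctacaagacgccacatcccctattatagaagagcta
Gm13341: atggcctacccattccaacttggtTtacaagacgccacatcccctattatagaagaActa

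Levels per length, as the FPKM values the authors deposited, fell into steps over the 17 embryos. Their library sum includes Rn45s. The 16S rRNA mt-Rnr2 was highest at 8922 ± 2135 FPKM (SD, n = 17), above mt-Cytb, the complex III subunit cytochrome b, in 14 of 17 embryos. mt-Cytb was at 6404 ± 2659 and above mt-Co1 in all 17. The levels of mt-Co1 (3847 ± 1276), the catalytic subunit of cytochrome c oxidase, and of mt-Nd1 (3819 ± 1456), a complex I subunit, could not be ordered, with mt-Co1 higher in 9 of 17 embryos. Below them came the complex I subunits mt-Nd4 (1261 ± 386), mt-Nd5 (1070 ± 457) and mt-Nd2 (1031 ± 389), of which mt-Nd5 was above mt-Nd2 in 9 of 17 embryos. The 12S rRNA mt-Rnr1 was at 742 ± 245 FPKM and mt-Nd6 at 176 ± 65.6 FPKM. The other 6 mRNAs were far lower: mt-Atp6 at 14.3 ± 4.14, mt-Co2 at 13.5 ± 5.13, mt-Co3 at 11.2 ± 4.79, mt-Atp8 at 7.73 ± 3.30, mt-Nd3 at 5.47 ± 3.41 and mt-Nd4l at 2.10 ± 1.11 FPKM. In each of the 17 embryos mt-Nd6 was above mt-Atp6, the highest of these 6.

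**Figure D1:**
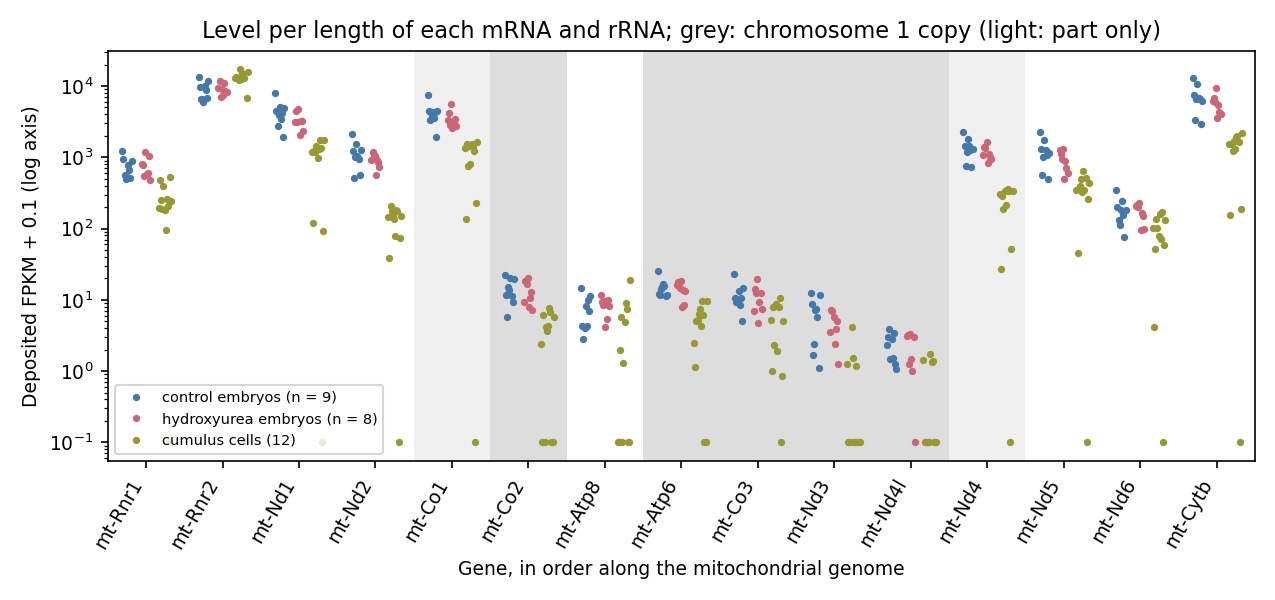
Deposited FPKM plus 0.1 (log axis) of the 13 mRNAs and 2 rRNAs in each library, in gene order along mitochondrial DNA; dark grey marks genes with a near-complete chromosome 1 copy and light grey those with a copy of part of the gene. The genes from mt-Co2 to mt-Nd4l average 14.3 FPKM or less in embryos, while mt-Nd1, mt-Co1 and mt-Cytb average 3819 FPKM or more. The library sum of FPKM includes Rn45s, which took a larger share in cells and lowers their values beside those of embryos.

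The 6 low mRNAs are the 5 with a near-complete chromosome 1 copy and mt-Atp8, which lies between them. They include subunits of cytochrome c oxidase (mt-Co2, mt-Co3), both mitochondrial ATP synthase subunits (mt-Atp6, mt-Atp8) and 2 small complex I subunits (mt-Nd3, mt-Nd4l). In raw counts per embryo, mt-Co2 ranged from 7 to 47, mt-Atp6 from 13 to 53, mt-Co3 from 9 to 54, mt-Atp8 from 1 to 9, mt-Nd3 from 1 to 14 and mt-Nd4l from 0 to 3. By comparison mt-Co1, whose product works in the same enzyme as those of mt-Co2 and mt-Co3, ranged from 8627 to 34685. Complex V genes took 0.0543% ± 0.0126 of mitochondrial mRNA counts (SD, n = 17), complex I genes 39.0% ± 1.74, complex III 33.1% ± 2.98 and complex IV 27.8% ± 3.35. How reads that match several places were counted is not given in the sources used here, and the part of the nuclear copies in these low values was not tested. Adjacent genes also share bases: mt-Atp8 and mt-Atp6 share 43, mt-Nd4l and mt-Nd4 share 7, and mt-Nd5 shares 14 with mt-Nd6 on the opposite strand. Smart-seq2 does not mark strand, so reads of mt-Nd6 and of the heavy-strand transcript across it cannot be told apart.

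The share of counts taken by all 37 rows together overlapped between the embryo groups. In control embryos 1 to 9 the share was 8.39%, 5.08%, 3.14%, 3.90%, 4.91%, 5.24%, 4.57%, 2.73% and 6.42%. In hydroxyurea embryos 1 to 8 it was 4.59%, 5.82%, 4.05%, 5.34%, 3.19%, 5.07%, 4.39% and 3.53%. Every hydroxyurea embryo lay within the range of the controls, of which embryo 1 was the highest and embryo 8 the lowest. The mean was 4.93% ± 1.71 (SD, n = 9) in control and 4.50% ± 0.900 (SD, n = 8) in hydroxyurea embryos, a difference of -0.434 ± 0.654 percentage points (SE; 2-sided exact permutation test over 24310 splits, p = 0.551, Benjamini-Hochberg adjusted over 6 measures 0.894). Without control embryo 1 the difference was -0.0021 and without control embryo 8 it was -0.709 percentage points. Counting error was small beside this spread: the 95% binomial interval (Wilson score) of control embryo 8, for instance, ran from 2.71% to 2.75%. Smart-seq2 has no molecular identifiers, so such intervals cover counting error only. Set against the ERCC spike-ins, mitochondrial counts were 0.359 to 0.800 per ERCC count in control and 0.380 to 0.865 in hydroxyurea embryos, with a log2 difference of 0.03 ± 0.19 (SE; exact permutation p = 0.894, adjusted 0.894). Since a library is a whole embryo, fewer mitochondria and less RNA per mitochondrion cannot be told apart.

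**Figure D2:**
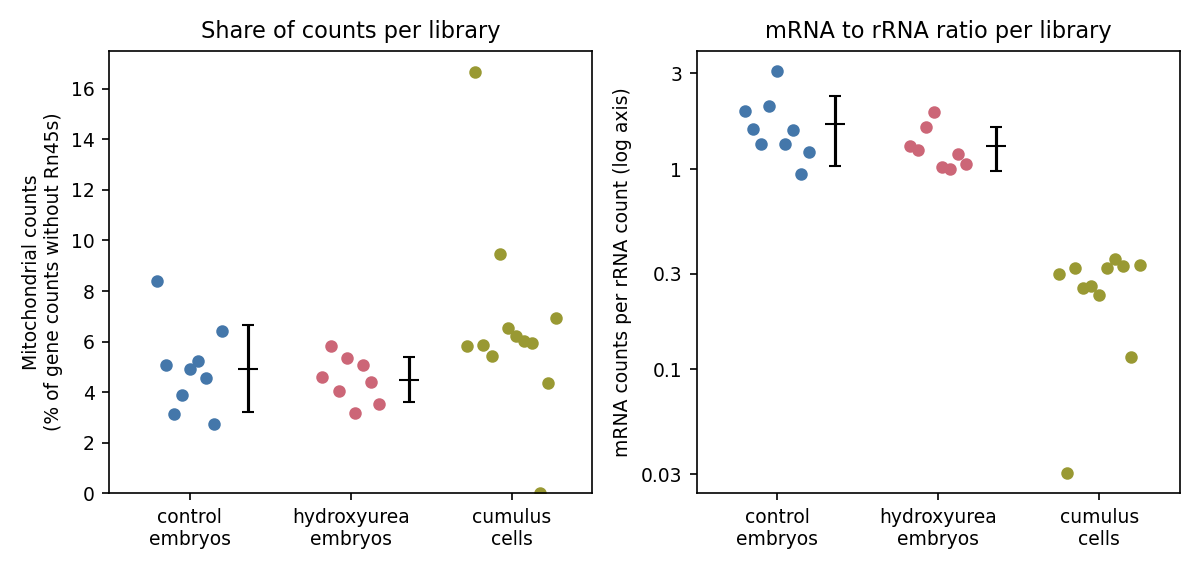
Left, mitochondrial counts as a percentage of gene counts without Rn45s per library; right, mitochondrial mRNA counts per rRNA count (log axis), with cumulus cell 10 absent because it has no mitochondrial count. Points are libraries and bars beside the embryo groups are the mean ± SD; the embryo groups overlap in both panels, and the cells lie below all embryos in the ratio.

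The balance of mRNA to rRNA counts was also compared. Whether cDNA is made from rRNAs as readily as from mRNAs was not tested, so the ratio is one of counts only. mRNA counts per rRNA count were 1.95, 1.59, 1.33, 2.06, 3.09, 1.33, 1.57, 0.942 and 1.22 in control embryos 1 to 9. In hydroxyurea embryos 1 to 8 they were 1.31, 1.25, 1.62, 1.93, 1.02, 1.01, 1.19 and 1.06. Control embryo 5 stood highest and the groups overlapped, with 2 of 8 hydroxyurea embryos above the control median of 1.57. The means were 1.67 ± 0.635 (SD, n = 9) and 1.30 ± 0.322 (SD, n = 8). The log2 difference was -0.32 ± 0.20 (SE; exact permutation p = 0.143, adjusted 0.428). It was -0.20 without control embryo 5 (exact permutation p = 0.267, adjusted 0.802) and -0.42 without control embryo 8 (exact permutation p = 0.0458, adjusted 0.275).

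Each mRNA was read from the fit across all genes, with 11476 genes tested. At an adjusted p under 0.05 edgeR's quasi-likelihood test called 0 genes (0% of those tested), and 0 of the 13 members that passed the filter on low counts: 10 mRNAs, both rRNAs and mt-Tp. DESeq2 called 3 of all genes and limma-voom 0, with 0 members by either. At an unadjusted p under 0.05 in edgeR, 2.04% of all genes were lower and 3.81% higher in hydroxyurea embryos, and 0 of the 13 members were in either set. With no filter on low counts, 2 of 31 members and 4.09% of all genes were lower at that unadjusted p, and 0 members and 1193 of 19499 genes were higher. Neither lower member was among the 12 mRNAs and rRNAs that passed the filter. Of the 12 tested mRNAs and rRNAs, 10 had a fitted log2 fold change below 0, as did 46.4% of all genes, and their median was -0.17 against 0.04 over all genes. Scaling by ERCC counts raised all genes, to a median of 0.19, and the members with them, to a median of 0.0036 with 6 of the 12 below 0. Relative to the median of all genes, the members' median was -0.21 with TMM and -0.19 with ERCC scaling.

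**Figure D3:**
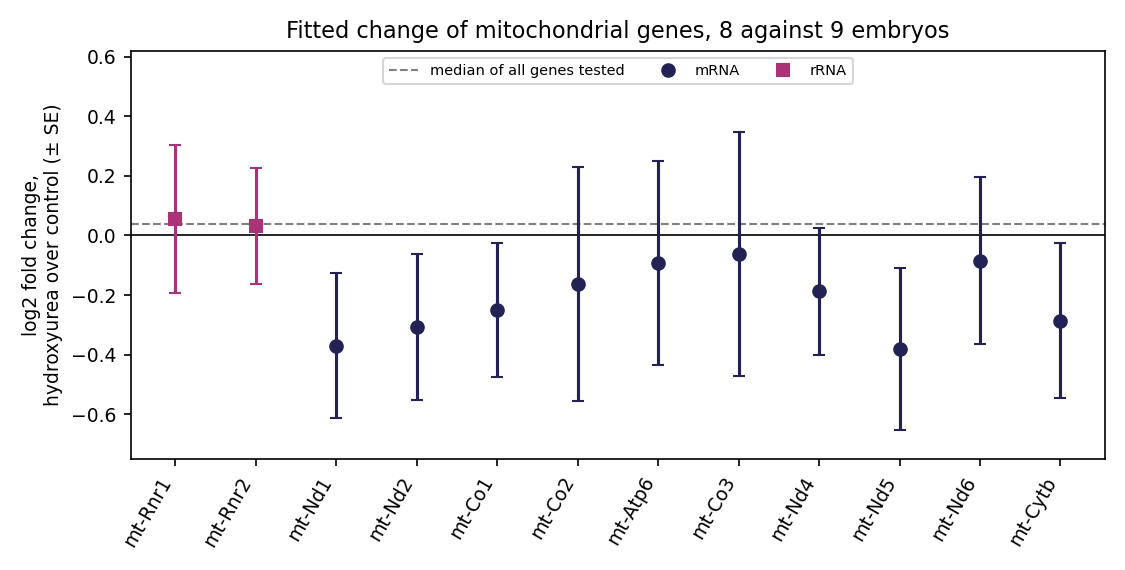
Fitted log2 fold change (hydroxyurea over control, ± SE, edgeR) of the 12 mitochondrial mRNAs and rRNAs that passed the filter, 8 against 9 embryos, in gene order; the dashed line is the median of all genes tested, 0.04. The estimates run from -0.38 for mt-Nd5 to 0.06 for mt-Rnr1, and none passed the test.

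Among complex I subunits, mt-Nd1 was at 9747, 5203, 3236, 4539, 5757, 4466, 4898, 2277 and 6929 CPM in control embryos 1 to 9. In hydroxyurea embryos 1 to 8 it was at 3893, 5772, 3878, 5336, 2516, 4328, 4355 and 2874 CPM. Only 2 of the 8 were above the control median of 4898 CPM, yet all lay within the control range. Its log2 fold change of -0.37 ± 0.24 (SE) had the smallest unadjusted p of the mRNAs, 0.142, and an adjusted p of 0.844 in edgeR. It was -0.20 without control embryo 1 and -0.49 without control embryo 8 (edgeR unadjusted p = 0.0377, the lowest adjusted p over the embryos left out 0.638). For mt-Nd5, a subunit of the proton-pumping membrane arm, the lowest, median and highest values were 1132, 2881 and 5183 CPM in control and 1141, 2287 and 2961 CPM in hydroxyurea embryos. The highest 4 values belonged to controls, and the log2 fold change was -0.38 ± 0.27 (SE; edgeR adjusted p = 0.867). The membrane-arm subunits mt-Nd2 and mt-Nd4 gave log2 fold changes of -0.31 ± 0.24 and -0.19 ± 0.21.

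mt-Cytb, the only complex III subunit made in mitochondria, was at 18957, 10610, 4805, 8966, 14436, 10462, 9099, 4102 and 10364 CPM in control embryos 1 to 9. In hydroxyurea embryos it was at 9115, 10377, 9095, 12620, 5153, 8563, 6902 and 5880 CPM. Control embryos held both the highest and the lowest value. The log2 fold change was -0.29 ± 0.26 (SE; edgeR adjusted p = 0.887). For mt-Co1 the control embryos ranged from 3714 to 14500 CPM with a median of 8074, and the hydroxyurea embryos from 5006 to 10237 with a median of 6645 CPM. These ranges overlapped fully, with a log2 fold change of -0.25 ± 0.22 (SE; edgeR adjusted p = 0.884). Of the low mRNAs, mt-Co2 was at 12.5 ± 5.48 CPM in control and 11.3 ± 4.19 CPM in hydroxyurea embryos, mt-Atp6 at 12.8 ± 3.94 and 12.2 ± 3.29 CPM, and mt-Co3 at 11.5 ± 5.23 and 11.1 ± 4.67 CPM. Their log2 fold changes were -0.16 ± 0.39, -0.09 ± 0.34 and -0.06 ± 0.41 (SE). With ERCC scaling these were above 0 and still below the median of all genes, by 0.17, 0.09 and 0.10. The means of mt-Atp8, mt-Nd3 and mt-Nd4l lay at or below 2.90 CPM in both groups, under the filter.

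mt-Nd6, the only mRNA of the light strand, was compared with the 12 heavy-strand mRNAs. Whether its RNA is tailed and primed as theirs are was not tested, so the values are shares of counts only. It made 0.396% ± 0.0916 of mRNA counts in control (n = 9) and 0.453% ± 0.0658 in hydroxyurea embryos (n = 8), with values from 0.265% to 0.572% and from 0.361% to 0.546%. The groups overlapped, and the log2 ratio to the heavy-strand mRNAs differed by 0.21 ± 0.13 (SE; exact permutation p = 0.142, adjusted 0.428). That difference was 0.14 without control embryo 4 (exact permutation p = 0.260, adjusted 0.779) and 0.28 without control embryo 6 (exact permutation p = 0.0367, adjusted 0.220). The log2 fold change of mt-Nd6 itself was -0.08 ± 0.28, and 0.13 with ERCC scaling, where the median of all genes was 0.19. Over the 17 embryos the members whose CPM ranked most like that of mt-Nd6 were mt-Nd4 (Spearman 0.846), mt-Co2 (0.831) and mt-Nd3 (0.828); all share the library and its depth.

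The annotated mRNAs differ in how they end. The cDNA step primes from poly(A) tails, and whether the ends bear on priming was not tested. Of the 13, 3 have annotated lengths that are not a multiple of 3 bases and end in a single T of a stop codon that the tail is known to complete. These are mt-Cytb, mt-Nd4 and mt-Co3. The annotated sequences of mt-Co1 and mt-Nd1, shown beside them, end in a full stop codon. The last 2 bases of mt-Nd1 are also part of mt-Ti on the same strand, and mt-Nd2 shares 2 with mt-Tw. Where excision of the tRNAs leaves the ends of mt-Nd1 and mt-Nd2 was not tested. The last 30 bases follow from GENCODE M21 (GRCm38, plus strand, chrM:14145-15288, chrM:10167-11544, chrM:8607-9390, chrM:5328-6872 and chrM:2751-3707 for the whole genes), 5′ to 3′, with the stop codon or its encoded part in capitals.
mt-Cytb: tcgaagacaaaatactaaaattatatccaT
mt-Nd4: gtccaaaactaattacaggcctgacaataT
mt-Co3: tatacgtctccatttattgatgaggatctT
mt-Co1: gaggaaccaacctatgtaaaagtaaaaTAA
mt-Nd1: tttacagcgggagtaccaccatacataTAG
Of the high mRNAs, mt-Cytb has an incomplete stop codon by annotation and mt-Co1 a full one. The part of the ends in the levels was not tested.

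The rRNAs form the small (12S) and large (16S) mitochondrial ribosomal subunits. mt-Rnr2 was at 26970, 18549, 12822, 12197, 11399, 21488, 16987, 13461 and 27699 CPM in control embryos 1 to 9. In hydroxyurea embryos 1 to 8 it was at 18912, 24934, 14790, 16900, 15049, 24479, 18651 and 16530 CPM. The hydroxyurea values lay within the control range, and the log2 fold change was 0.03 ± 0.19 (SE; edgeR adjusted p = 0.988). mt-Rnr1 was at 897 ± 333 and 937 ± 306 CPM, with a log2 fold change of 0.06 ± 0.25 (SE). Per length it was 742 FPKM against 8922 for mt-Rnr2, and both are cut from the same transcript. Whether cDNA is made from both as readily was not tested, so these are levels of counts only.

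The ratio of 12S to 16S counts had a similar mean and a different spread in the embryo groups. It was 0.0558, 0.0590, 0.0519, 0.0467, 0.0531, 0.0472, 0.0451, 0.0453 and 0.0449 in control embryos 1 to 9. In hydroxyurea embryos 1 to 8 it was 0.0522, 0.0400, 0.0464, 0.0788, 0.0462, 0.0327, 0.0758 and 0.0351. Hydroxyurea embryos 4 and 7 were above every control and embryos 2, 6 and 8 below every control. The log2 means differed by -0.03 ± 0.17 (SE; exact permutation p = 0.839, adjusted 0.894), and the SD on the log2 scale was 0.15 in control and 0.47 in hydroxyurea embryos. The difference in spread was not tested. Embryos 4 and 7 also had the fewest genes detected in their group, 12887 and 13892 against a median of 15010.5, and the part of this in the ratio was not tested.

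Across the 17 embryos, rRNA and mRNA levels (log2 of the counts relative to gene counts outside mitochondrial genes and Rn45s) were related with Pearson r = 0.563 (permutation p = 0.0178) and Spearman rho = 0.439 (permutation p = 0.0801). It was the only relation tested, and the likeness of single members is given as a description. Without control embryos 1 and 8, the farthest from the median mRNA level, r was 0.361 (permutation p = 0.187), so passing the threshold rests on those embryos; leaving them out also narrows the range of levels. Within groups r was 0.627 in control (n = 9, exact permutation p = 0.0686) and 0.559 in hydroxyurea embryos (n = 8, exact permutation p = 0.152), which include neither of them. Both measures share each library's denominator. mt-Rnr1 and mt-Rnr2 were most like each other in rank over the embryos, with a Spearman correlation of 0.784.

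**Figure D4:**
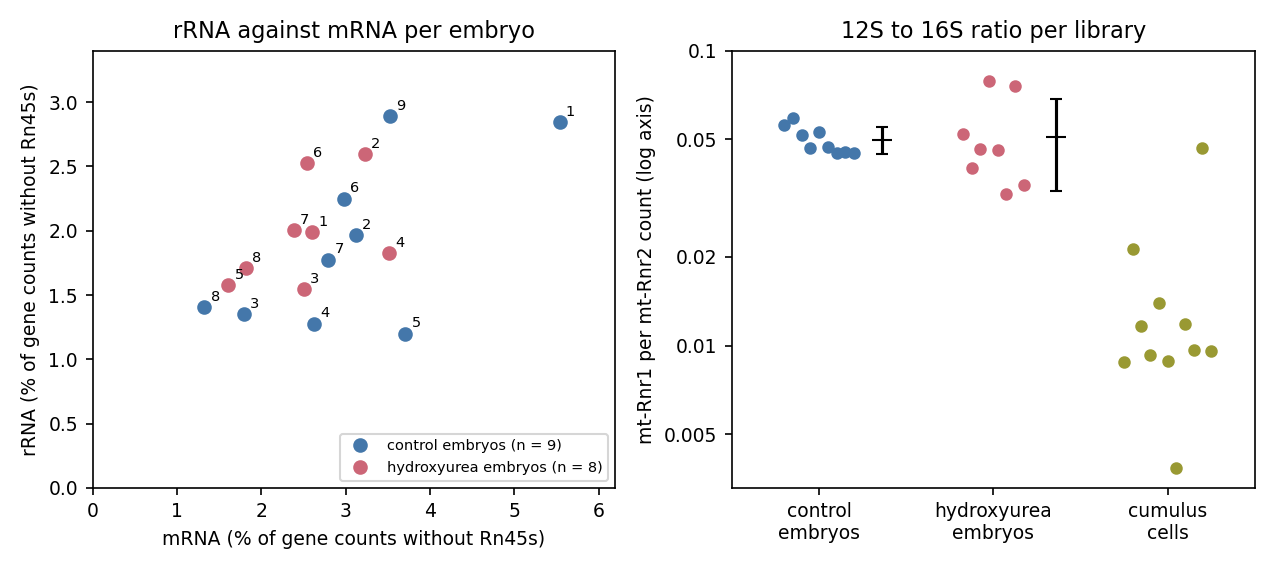
Left, mitochondrial rRNA against mRNA, each as a percentage of gene counts without Rn45s, per embryo with its replicate number; control embryo 1 stands out at 5.54% mRNA and 2.85% rRNA. Right, 12S counts per 16S count (log axis) per library, with the mean ± SD beside each embryo group; control embryos lie between 0.0449 and 0.0590, and hydroxyurea embryos spread from 0.0327 to 0.0788.

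The tRNA rows held few counts. The genes are 59 to 75 bases long, and mature tRNAs lack a poly(A) tail. Summed over the 22 rows, each embryo had 12 to 50 counts, and 6 genes (mt-Ti, mt-Tw, mt-Tn, mt-Tk, mt-Tg and mt-Th) had 0 in all 17. The 8 light-strand genes held 401 of the 466 embryo counts and the 14 heavy-strand genes 65. mt-Tp, the proline tRNA, accounted for 262 and was counted in 17 of 17 embryos with 8 to 28 counts each. The next were mt-Tq, for glutamine, with 72 counts in 16 embryos, and mt-Ts1, for serine, with 30 counts in 14. mt-Te, for glutamate, had the same mean count in control embryos as mt-Tt, for threonine, 0.889, and they held 17 and 27 counts over all embryos. tRNAs made 0.0279% ± 0.0132 of mitochondrial counts in control (n = 9) and 0.0252% ± 0.00690 in hydroxyurea embryos (n = 8; exact permutation p = 0.746, adjusted 0.894).

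mt-Tp is printed whole from GENCODE M21 (GRCm38, chrM:15356-15422, minus strand), 5′ to 3′ with the anticodon in capitals, as the tRNA row with the most counts; mt-Tq (chrM:3772-3842, minus strand) stands beside it.
mt-Tp: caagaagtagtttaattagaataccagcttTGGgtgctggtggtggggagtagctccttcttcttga
mt-Tq: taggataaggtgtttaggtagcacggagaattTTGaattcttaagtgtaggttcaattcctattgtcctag
Without strand, counts in a light-strand tRNA row and reads of the heavy-strand transcript across it cannot be told apart.

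**Figure D5:**
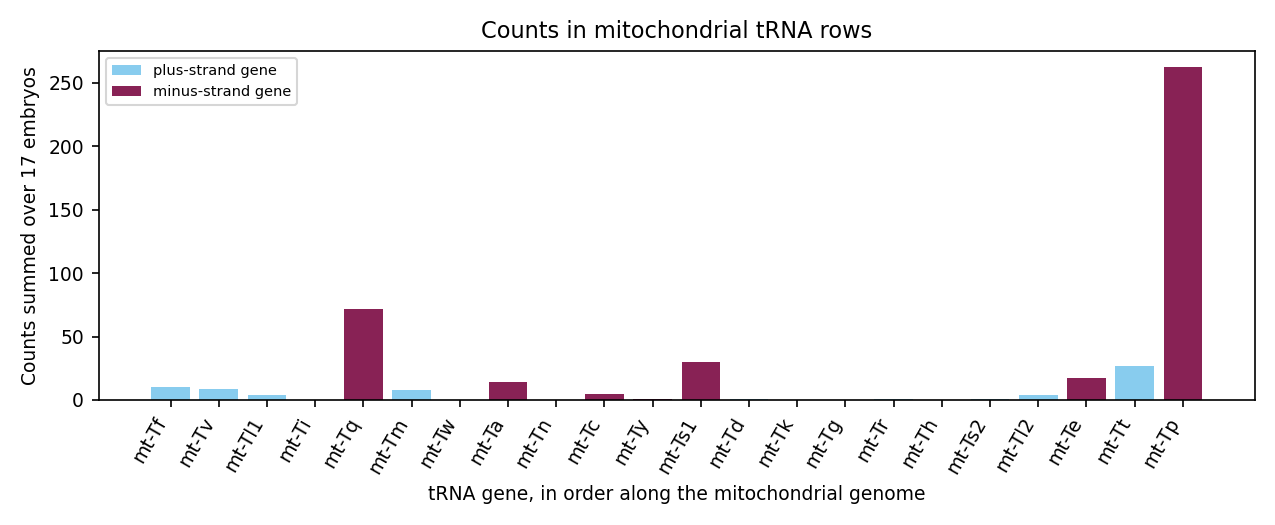
Counts of the 22 mitochondrial tRNA rows summed over 17 embryos, in gene order, coloured by the strand of the gene (plus, heavy-strand transcript; minus, light-strand transcript). mt-Tp stands at 262 and mt-Tq at 72, and 6 rows are at 0.

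Cumulus cells had a different make-up of mitochondrial counts. It is given without a test because the labels name no animal or culture and the 12 cells count as 1 sample. Their summed share was 6.27% of gene counts without Rn45s (binomial 95% interval 6.25% to 6.28%, counting error only), and 6.36% without cell 10. The order against embryos depended on the denominator: with Rn45s kept, the summed cells were at 2.61% (2.78% without cells 2, 10 and 11) and control embryos at 3.87% ± 1.27 (SD, n = 9). Per ERCC count the summed cells were at 0.0344 and control embryos at 0.588 ± 0.143 (SD, n = 9). This compares amounts of RNA only if both kinds of library received the same ERCC amount, which was not tested. Single cells 1 to 12, without Rn45s, were at 5.83%, 16.7%, 5.85%, 5.41%, 9.47%, 6.55%, 6.23%, 6.02%, 5.94%, 0%, 4.37% and 6.95%. Cell 10 had 0 mitochondrial counts of 152332, which allows a share of up to 0.00197%; 73.5% of its counts were ERCC. Cell 2 had the highest share with 86.6% of its gene counts in Rn45s, and 9 cells without 2, 10 and 11 summed to 6.26%. Leaving out cell 11, whose cumulus and granulosa genes summed to 3282 CPM, was chosen after its values were seen.

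In the cells the balance of counts was shifted to rRNA. Whether rRNAs enter the cDNA equally in cells and embryos was not tested. The summed mRNA to rRNA ratio was 0.274, or 0.298 without cells 2, 10 and 11, and all 11 cells with mitochondrial counts lay below every embryo. These 11 ran from 0.0304 in cell 2 to 0.354 in cell 8, against 0.942 to 3.09 in embryos. mt-Rnr2 alone made 77.6% of mitochondrial counts in the cells and 39.5% ± 7.06 in embryos (SD, n = 17). mt-Rnr2 stood at 48601 CPM in the summed cells (exact Poisson 95% interval 48465 to 48738), a log2 ratio of 1.44 to the control embryo mean with 1 CPM added, or 0.53 with Rn45s kept in the denominator. The 12S to 16S ratio was 0.0117 in the sum and 0.00383 to 0.0468 in single cells, where cell 11 alone was above 0.0212. The cells also had fewer genes detected than embryos, 4054 to 8629 against 12887 to 15421, and the part of this and of their larger ERCC share in these ratios was not tested.

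The high mRNAs were lower in the cells than in control embryos when set against gene counts without ERCC and Rn45s. mt-Nd2 was at 353 CPM in the summed cells, with a log2 ratio of -2.09, mt-Nd4 at 850 (-1.47), mt-Cytb at 3881 (-1.39), mt-Co1 at 4041 (-1.02), mt-Nd1 at 2585 (-1.02) and mt-Nd5 at 1639 CPM (-0.77). mt-Nd5 was above mt-Nd2 per length in all 11 cells with mitochondrial counts, whereas in embryos it was above in 9 of 17. mt-Nd6 was at 118 CPM (-0.03, or -0.92 with Rn45s in the denominator) and made 0.874% of mRNA counts in the summed cells, against 0.423% ± 0.0833 in embryos. The 6 low mRNAs were low in the cells too, from 4 counts over 12 cells for mt-Nd4l to 112 for mt-Co3. The tRNA rows held 35 counts over the 12 cells, 25 of them in mt-Tp.

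Nuclear genes of mitochondrial gene expression were read from the same fit, by lists chosen with earlier results known. Of 18 tested genes of mitochondrial DNA transcription and replication, 10 had a fitted change above 0 and 8 below, with a median of 0.05 against 0.04 for all genes. Its most abundant members in control embryos were Tfb2m, a transcription initiation factor (123 ± 29.0 against 110 ± 31.0 CPM in control and hydroxyurea embryos), and Ssbp1, the single-stranded DNA binding protein (112 ± 44.3 against 138 ± 62.8 CPM). Of 28 RNA processing and decay genes, 12 were above and 16 below 0 with a median of -0.10. The most abundant in control embryos were Angel2, a phosphatase of RNA ends (885 ± 167 against 790 ± 93.1 CPM), and Nsun4, a 12S rRNA methyltransferase (475 ± 65.4 against 394 ± 77.4 CPM). None of these genes passed an adjusted p of 0.05 in edgeR, and the lowest adjusted p in the 5 lists was 0.829.

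Among 16 translation and tRNA modification genes, 7 were above and 9 below 0 (median -0.02), with Mto1, a tRNA-modifying enzyme (62.2 ± 20.6 against 69.9 ± 46.4 CPM), and Gfm2, an elongation factor of ribosome recycling (58.5 ± 20.6 against 59.0 ± 14.9 CPM), the most abundant in control embryos. Of 6 regulators of biogenesis, 5 were above and 1 below 0 (median 0.27), the most abundant in control embryos being the transcription factors Gabpb1 (100.3 ± 31.5 against 120.1 ± 18.4 CPM) and Nrf1 (96.9 ± 21.6 against 114 ± 25.9 CPM). Of 9 mitophagy genes 5 were above and 4 below 0 (median 0.06), and the most abundant in control embryos were Bnip3l, a mitophagy receptor (116 ± 37.7 against 123 ± 35.7 CPM), and Phb2, an inner-membrane receptor (113 ± 23.0 against 145 ± 34.4 CPM). At an unadjusted p under 0.05, and chosen after their values were seen, were Lrpprc (log2 fold change -0.62 ± 0.29), a stabiliser of mitochondrial mRNAs, Grsf1 (0.67 ± 0.26), an RNA-granule protein, and Rexo2 (-0.57 ± 0.23), an oligoribonuclease. The others were the regulator Pprc1 (0.65 ± 0.27) and the mitophagy genes Bnip3 (0.57 ± 0.27), Ulk1 (0.88 ± 0.29) and Fbxl4 (-0.87 ± 0.39). None of the 7 passed the adjusted threshold. They are 9.21% of the 76 list genes tested, beside 5.85% of all genes at that unadjusted p.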

How the data were processed

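Per the labels' protocols, single embryos and cells were made into Smart-seq2 libraries. The tools named by the submitters' processing notes are STAR 2.7.3a, FastQC and R 4.0.2, with build mm10. Which counter, annotation and strand option made the counts is not given in the sources used here. Raw counts per gene (24540 rows, of which 92 are ERCC) and FPKM values were deposited by the authors. The deposited FPKM equalled counts per library sum of gene counts, Rn45s included, and per gene length for 18588 of 18588 genes checked (tolerance 0.001).

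CPM and shares were computed from gene counts without ERCC and Rn45s. Embryos were compared with edgeR 4.0.16 in R 4.3.3 (TMM, filterByExpr, quasi-likelihood test, Benjamini-Hochberg over all genes, threshold 0.05; standard errors from the F statistic), tested on simulated data. Library measures used exact permutation tests (SciPy 1.17.1). Alternatives used DESeq2 1.42.0 and limma 3.58.1. Nuclear copies were sought with BLAST 2.17.0 among annotated transcripts only. Zero counts allow up to 3 counts (95% level).

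Members and lists were chosen with earlier results of these data known. Fold changes are given for mRNAs and rRNAs that passed the filter, and named nuclear genes are the 2 most abundant per list in control embryos, plus 7 at an unadjusted p under 0.05 that were chosen after their values were seen. No label ties embryos to females or days, and p-values therefore cover only the spread among these 17 embryos, which may be technical.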

Additional observations from a re-analysis of the deposited data

Results flagged for a closer look

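Of 42 groups of embryos examined for a sample far from the others, 2 were flagged, and chance flags about 1 in 20. In control embryo 3, tRNA rows took 0.0619% of mitochondrial counts, against a group median of 0.0249% and a next highest value of 0.0286%; this rests on 28 tRNA counts. In control embryo 1, mt-Atp6 stood at 22.2 CPM, against a group median of 11.6 CPM and a next highest value of 15.1 CPM, and this embryo also had the highest mitochondrial share of its group, 8.39%.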

How the results depend on the processing

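No mitochondrial gene was called under any alternative. Over all genes DESeq2 called 3 and leaving out 1 embryo gave 0 to 1, the 1 without hydroxyurea embryo 8. Of the 12 tested mRNAs and rRNAs, 7 lay below 0 without control embryo 1 or hydroxyurea embryo 5, where the median was -0.06 and -0.10, and up to 12 without other embryos. The exact sign-flip test on same-numbered pairs (replicate block) gave a share difference of -0.25 percentage points (p = 0.734) and a log2 mRNA to rRNA difference of -0.37 (p = 0.0859); the block changed no call of the single measures. The labels do not say whether same numbers pair embryos. Correlations of same-numbered pairs ran from -0.102 to 0.181 and cannot settle it. Counts per ERCC turned to a log2 difference of -0.10 with mRNA rows only and -0.22 in medians, and ran from -0.058 to 0.11 without single embryos. Without single embryos the share difference ran from -0.709 to -0.0021 percentage points, the log2 mRNA to rRNA difference from -0.42 to -0.20, the 12S to 16S difference ran from -0.13 to 0.047, the log2 mt-Nd6 to heavy-strand difference from 0.14 to 0.28 and the tRNA share difference from -0.00432 to 0.00160. The relation of mRNA and rRNA lost its call within groups (r = 0.627 and 0.559), without the 2 farthest embryos (0.361) and per ERCC count (0.468). The cumulus share was 6.36% without cell 10 and 2.61% with Rn45s in the denominator. The settings that leave out cells, keep Rn45s for them or leave out the farthest embryos, those within groups and those for nuclear genes were chosen after seeing the data.

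Some single genes turned direction between settings. ERCC scaling moved the median of all genes to 0.19, and with it mt-Co2 was at 0.019, mt-Atp6 at 0.10, mt-Co3 at 0.092, mt-Nd6 at 0.13 and Gfm2 at 0.19, none above that median. With the replicate block mt-Co3 was at 0.049, mt-Nd6 at 0.035 and Gfm2 at 0.067. With limma-voom mt-Nd6 was at 0.014, Gfm2 at 0.034 and Mto1 at -0.049. Without single embryos mt-Nd1 ran from -0.49 to -0.20, mt-Nd2 from -0.42 to -0.13, mt-Co1 from -0.40 to -0.10, mt-Co2 from -0.30 to -0.056, mt-Nd4 from -0.29 to -0.059, mt-Nd5 from -0.50 to -0.21 and mt-Cytb from -0.44 to -0.12, the values nearest 0 without control embryo 1 except for mt-Co2 (control embryo 9). Of those that turned, mt-Atp6 ran from -0.17 to 0.055, mt-Co3 from -0.26 to 0.13, mt-Nd6 from -0.20 to 0.092, mt-Rnr1 from -0.082 to 0.19, mt-Rnr2 from -0.047 to 0.13, Gfm2 from -0.12 to 0.071, Mto1 from -0.17 to 0.24 and Bnip3l from -0.051 to 0.17. The causes were not tested. Adding nuclear copies to the share could not be run because no copy has a row, and a minimum of 100000 counts kept all 12 cells. Depth limits the tRNA rows and the 6 low mRNAs.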
